A study of Mus musculus with 12 samples.

Results

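Cytokine, chemokine, tumour necrosis factor (TNF) family and Toll-like receptor genes were examined in the medial prefrontal cortex of adult mice whose mothers had received an immune stimulus in pregnancy. The members were chosen by symbol: genes whose names begin with Il and a digit, Ccl, Cxcl, Ccr and a digit, Cxcr, Tnfrsf, Tnfsf or Tlr and a digit, together with Tnf, and without Cxcl10 and Tlr3. This gave 164 of the 18820 genes measured by a probe set of their own. Each gene was represented by the single-gene probe set with the highest mean over the 12 samples. PolyI:C offspring were C57BL/6N mice aged 12 weeks, born to mothers given poly(I:C), a synthetic RNA duplex used as a mimic of viral infection, at 5 mg/kg intravenously on gestation day 17. Control offspring were C57BL/6N mice of the same age, born to mothers given saline by the same route on that day. Each group held 6 animals with 1 array each, and animals of both groups had been through cognitive and behavioural tests before the tissue was taken. The comparison asks whether genes of immune signalling differ in the adult cortex long after the prenatal stimulus.

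Cytokines and chemokines are secreted signals that bind receptors on other cells, and many act through kinases of the JAK family or through the transcription factor NF-kB. In the healthy adult brain most inflammatory cytokines are made at low levels, while a smaller set serves the resting tissue: Il34 from neurons maintains microglia through the receptor Csf1r, Cxcl12 guides migrating cells, and Il33 is held in the nuclei of glial cells and released on damage. In pregnant rodents poly(I:C) is known to raise maternal cytokines such as Il6 within hours.

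The labels used here name neither litter, sex nor array strip, the animals are called biological replicates, and some may be littermates, so p-values reflect only how these 12 animals varied. The numbers in the labels run lower in control animals than in PolyI:C animals, and if arrays were run in that order, order and group cannot be told apart. Arrays correlated at r = 0.994 to 0.998 across probe sets, which are not independent replicates. Neuronal markers (10 of 10 measured) and astrocyte markers (11 of 11) lay above the array median, as did 18 of 19 microglial markers, whereas 0 of 10 T and NK cell markers and 0 of 6 B cell markers did. All 8 measured striatal markers lay above it too, and their mean level spanned 6.70 to 6.91 in PolyI:C animals and 6.73 to 7.53 in control animals. All 8 were lower on average in PolyI:C animals, with a median difference of -0.27. Of the 8 markers 5 had an unadjusted p under 0.05, against 19.1% of annotated probe sets. The marker Ppp1r1b passed the threshold (-0.27 ± 0.061 SE, limma adjusted p = 0.028, with a range of 0.018 to 0.10 over the alternatives), but not without control 2, control 6, PolyI:C 1, PolyI:C 3 or PolyI:C 4.

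Most of the genes gave dim probe sets. The array median, the median over all 35556 probe sets of the mean over 12 samples, was 5.18 on the log2 scale. Of the 164 members, 39 (23.8%) lay above it and 125 below, whereas 59.7% of the 23099 annotated probe sets lay above. Below the 25th percentile of all probe sets (3.95) lay 53 members, in the range where a probe set may carry little more than background. The probe sets nearest the median were those of Cxcl17 (5.20) and Il27 (5.20) above it and Tnfrsf1b (5.11) and Il15ra (5.00) below it. Since probe sets bind their targets unequally, a signal does not rank one transcript against another. Above the median lay 7 of 36 interleukins, 12 of 36 interleukin receptors, 7 of 31 chemokines, 1 of 16 chemokine receptors, 1 of 10 TNF family ligands, 9 of 20 TNF receptor family genes and 1 of 11 Toll-like receptors. The remaining members were 3 antagonists of interleukins, 1 of them above, and Il1bos, an antisense transcript at the Il1b gene that the symbol rule took in.

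**Figure D1:**
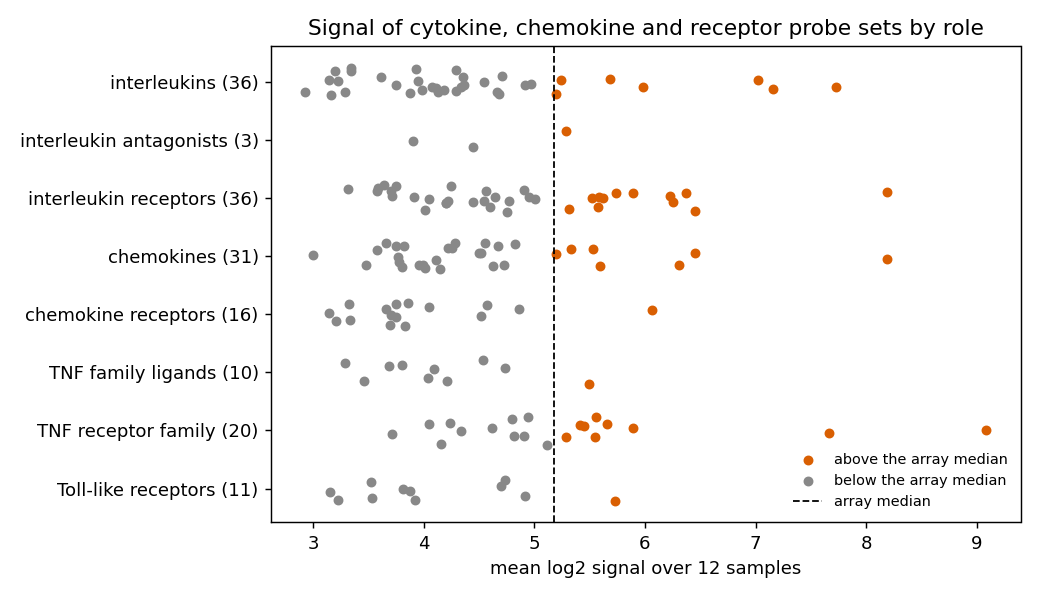
Mean log2 signal over the 12 samples (x axis) of the members, grouped by role (y axis, number of genes in brackets; Il1bos is not drawn), with points spread vertically for clarity. Orange points lie above the array median of 5.18 (dashed line) and grey points below it, where 125 of the 164 members fall.

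No member passed the threshold between PolyI:C and control offspring. In the limma fit over 23099 annotated probe sets, 0 of 164 members had a Benjamini-Hochberg adjusted p under 0.05, against 2.83% of all annotated probe sets. Above the array median 0 of 39 members passed, against 4.02% of annotated probe sets there, and below it 0 of 125, against 1.06%. At an unadjusted p under 0.05 there were 20 members, or 12.2%, against 19.1% of annotated probe sets. Above the median 8 of 39 members reached this (6 higher and 2 lower in PolyI:C animals), against 23.0% of annotated probe sets, split into 17.5% higher and 5.49% lower. Below the median 12 of 125 did (1 higher and 11 lower), against 13.2%, split into 3.18% higher and 10.1% lower. On both sides of the median the split of the members ran the same way as that of all annotated probe sets on that side. The members were not matched to those probe sets for signal. Of the 39 members above the array median 17 lay above the median of the annotated probe sets (5.805). A higher mean in PolyI:C animals was found for 63 of 164 members, against 52.0%, for 22 of the 39 above the median, against 63.0%, and for 41 of the 125 below it, against 35.7%. Fits with the trend and robust options of limma, without variance moderation, and over all rows of the table also called 0 members. Quantile normalization and centring each called 1 member (Il33), and 2 (Il33 and Il1rap) were called when only probe sets at or above the 50th percentile were tested. Leaving out 1 animal called 2 members without control 4 (Il18bp and Il1rap), 2 without PolyI:C 2 (Il18bp and Ccl12) and 1 without PolyI:C 5 (Il1rapl1).

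The differences were small. Their median was 0.0082 among members above the array median, against 0.022 for all annotated probe sets there, and -0.023 among members below it, against -0.019. With 1 animal left out these medians ranged from 0.0028 (without PolyI:C 4) to 0.023 (without PolyI:C 3) above the array median, and from -0.033 (without control 5) to -0.014 (without PolyI:C 3) below it. No member reached 1.2-fold, a size that 0.866% of annotated probe sets reached (1.22% above and 0.343% below the median), and no member had groups that did not overlap, against 2.37% (3.29% above and 1.01% below). The member differences ran from -0.19 (Il33) to 0.18 (Il18bp). The 95% interval of the difference, unadjusted, lay wholly within 1.2-fold in either direction for all 125 members below the median and for 34 of the 39 above it, and within 1.5-fold for all 164. On a dim probe set such an interval bounds the signal, of which the transcript may be a small part. Quantile normalization and centring each array on its median moved the median of the members above the array median below 0 (-0.0076 and -0.0022). All annotated calls split into 467 higher and 186 lower as deposited, 239 and 285 after quantile normalization, and 298 and 232 after centring.

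**Figure D2:**
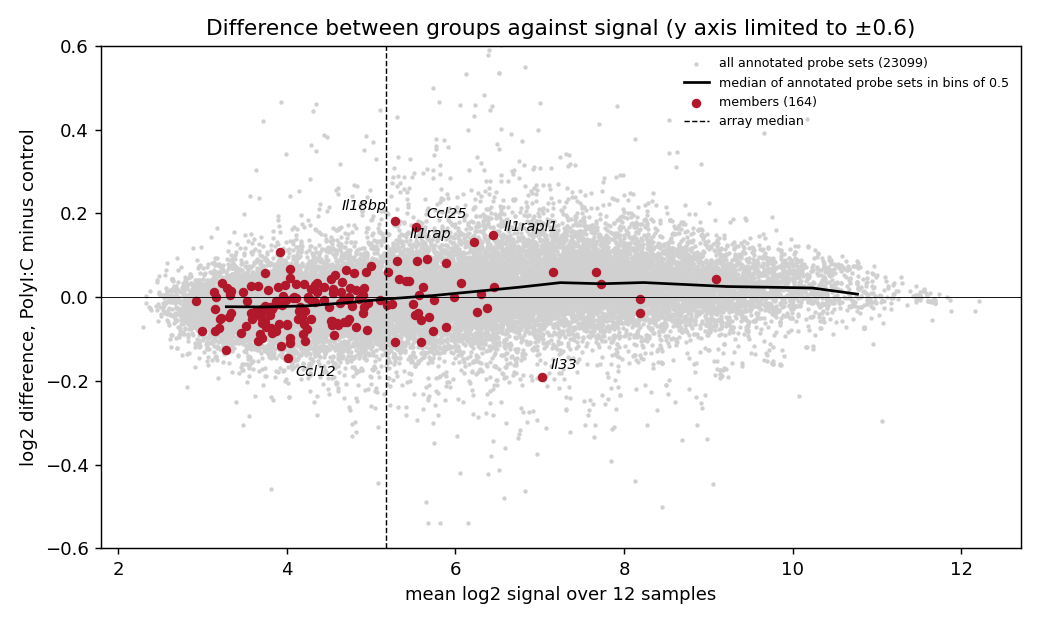
Log2 difference, PolyI:C minus control (y axis), against mean log2 signal over 12 samples (x axis) for 23099 annotated probe sets (grey) and the 164 members (red). The black line is the median of the grey points in bins of signal, and the dashed line the array median. Members stay between -0.19 and 0.18. Their median was 0.0082 above the array median, against 0.022 for the grey points there, and -0.023 below it, against -0.019.

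Among the interleukins, Il33 had the lowest p. Il33 (probe set 10462442) measured 6.75 at the lowest, 6.93 at the median and 7.07 at the highest in PolyI:C animals, and 6.98, 7.09 and 7.28 in control animals. All 6 PolyI:C animals lay below the control mean, and the groups overlapped. The means were 6.93 ± 0.11 in PolyI:C animals and 7.12 ± 0.11 in control animals (log2, SD, n = 6 each), a difference of -0.19 ± 0.055 (SE), which did not pass in limma (adjusted p = 0.068, with a range of 0.048 to 0.15 over the alternatives). It passed after quantile normalization (-0.22, adjusted p = 0.0496), after centring arrays (-0.20, adjusted p = 0.0479) and when only annotated probe sets at or above their 50th percentile were tested (adjusted p = 0.0479). In mouse brain Il33 is known from oligodendrocytes and astrocytes. All 9 measured oligodendrocyte markers had lower means in PolyI:C animals and 0 a higher mean, against 52.0% of annotated probe sets with a higher mean. Of these markers 5 passed the threshold (Cldn11, Mobp, Cnp, Myrf and Gjb1), against 2.83% of annotated probe sets. All 9 had an unadjusted p under 0.05, against 19.1%. The median difference was -0.33, with a mean level of 6.70 to 7.19 in PolyI:C animals and 7.15 to 7.48 in control animals. The number of these calls ranged from 2 to 7 with 1 animal left out, with 2 without control 2 or PolyI:C 1 and 3 without control 3 or PolyI:C 4. It ranged from 0 to 8 over all alternatives, with 0 called without variance moderation and 2 over all rows of the table. Astrocyte markers gave 0 calls among 11 (0 at an unadjusted p under 0.05), a median of -0.0024, and 8.41 to 8.52 in PolyI:C animals against 8.43 to 8.56 in control animals. The part of these markers in the difference of Il33 was not tested, and in tissue RNA fewer cells of a type and less RNA per cell cannot be told apart.

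The other interleukins above the array median differed little. Il34, the neuronal ligand of Csf1r, averaged 7.74 ± 0.050 in PolyI:C animals and 7.71 ± 0.062 in control animals, and the difference of 0.031 (interval -0.043 to 0.11) changed sign after quantile normalization. Il17d, a member of the IL-17 family, averaged 7.19 ± 0.091 in PolyI:C animals and 7.13 ± 0.13 in control animals. Il18, a cytokine matured by the inflammasome, averaged 5.66 ± 0.13 in PolyI:C animals and 5.71 ± 0.22 in control animals, with an interval of -0.23 to 0.13. The inflammatory interleukins Il1b, Il6 and Il17a and the anti-inflammatory Il10 lay below the median. There Il1b differed by -0.011 (interval -0.082 to 0.060), Il6 by -0.010 (-0.074 to 0.054), Il10 by -0.039 (-0.098 to 0.020) and Il17a by -0.080 (-0.19 to 0.027). Il6, Il10 and Il17a also lay below the 25th percentile of all probe sets (3.945), where a probe set may carry little more than background. Il15, which supports natural killer and memory T cells, averaged 3.88 ± 0.091 in PolyI:C animals and 3.99 ± 0.032 in control animals (-0.12 ± 0.039 SE, limma adjusted p = 0.11). Il5, a growth factor of eosinophils, differed by -0.080 ± 0.034. Both lay near or below the 25th percentile of the array.

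Among the 36 interleukin receptors, Il1rapl1, Il1rap and Il1rapl2 had the highest differences. Il1rap (probe set 10434845), the accessory subunit that IL-1 and IL-33 receptors need to signal, measured 6.22 at the lowest, 6.30 at the median and 6.36 at the highest in PolyI:C animals, and 6.06, 6.15 and 6.25 in control animals. All 6 PolyI:C animals lay above the control mean, with overlap between the groups. The difference of 0.13 ± 0.037 (SE) had the lowest p of all members and did not pass (limma adjusted p = 0.063, with a range of 0.039 to 0.13 over the alternatives). Il1rap passed without control 4 (0.15, adjusted p = 0.039) and when only annotated probe sets at or above their 50th percentile were tested (adjusted p = 0.041).

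Il1rapl1 encodes a receptor-like adhesion protein that organises synapses in neurons, and its loss causes intellectual disability in people. It measured 6.25 at the lowest, 6.57 at the median and 6.62 at the highest in PolyI:C animals, and 6.30, 6.40 and 6.45 in control animals. PolyI:C 5 held the lowest value of all 12 animals, and the other 5 PolyI:C animals lay above every control animal. The difference was 0.15 ± 0.054 (SE, limma adjusted p = 0.14) with all animals, and 0.20 without PolyI:C 5 (adjusted p = 0.0092). The related Il1rapl2 averaged 5.36 ± 0.048 in PolyI:C animals and 5.27 ± 0.050 in control animals, and 6 of 6 PolyI:C animals lay above the control mean (0.085 ± 0.033, adjusted p = 0.16). Neuronal markers gave 0 calls among 10 (2 at an unadjusted p under 0.05, against 19.1% of annotated probe sets). These markers had a median difference of 0.022, and a mean level of 9.89 to 9.94 in PolyI:C animals against 9.85 to 9.91 in control animals. Their part in these differences was not tested.

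Of the proteins that blunt interleukin signals, Il18bp and Il1r2 are described for their low p, the first higher and the second lower in PolyI:C animals. The dim antagonists Il1rn and Il1f5 differed by 0.025 and 0.024. Il18bp (probe set 10566050), a secreted protein that neutralises IL-18, measured 5.25 at the lowest, 5.35 at the median and 5.55 at the highest in PolyI:C animals, and 5.12, 5.17 and 5.39 in control animals. All 6 PolyI:C animals lay above the control mean, and control 4 alone among the controls lay inside the PolyI:C range. The difference of 0.18 ± 0.054 (SE) did not pass (limma adjusted p = 0.075, with a range of 0.026 to 0.16 over the alternatives), and passed without control 4 (0.22, adjusted p = 0.026) or without PolyI:C 2 (0.21, adjusted p = 0.049). Il1r2, a decoy receptor that binds IL-1 without signalling, was dim at 4.15 ± 0.050 in PolyI:C animals and 4.24 ± 0.040 in control animals, a difference of -0.089 ± 0.032 (adjusted p = 0.13), with 6 of 6 PolyI:C animals below the control mean.

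**Figure D3:**
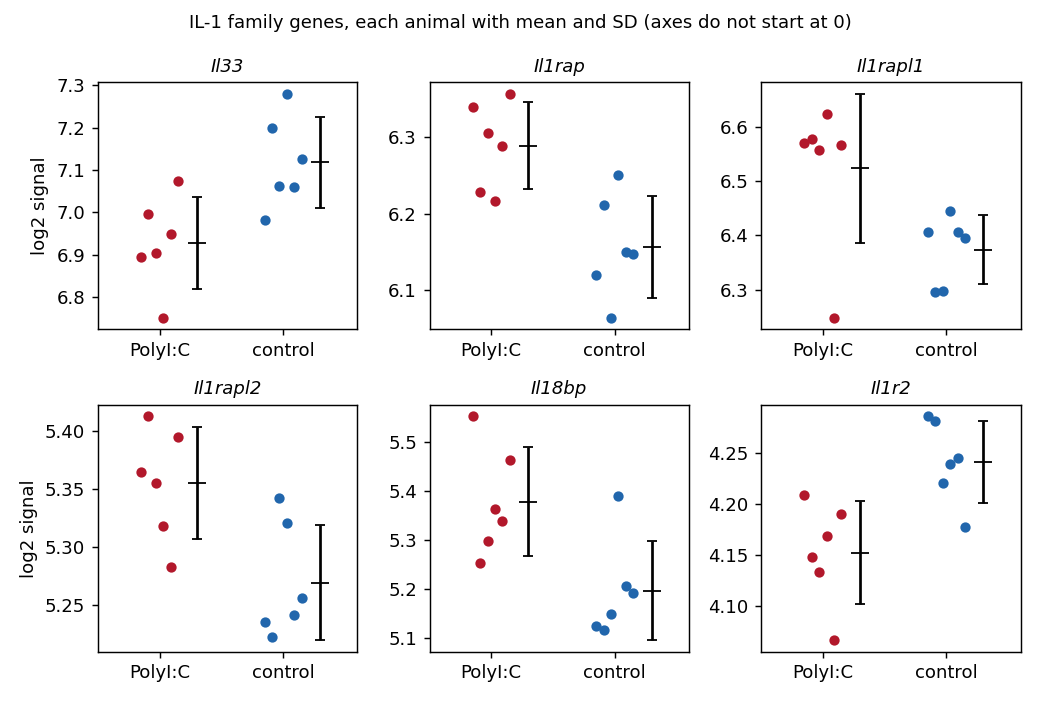
Log2 signal (y axes, not starting at 0) of 6 genes linked to the IL-1 family in each of 6 PolyI:C animals (red, left) and 6 control animals (blue, right), with the mean and SD beside each group. The genes drawn are among the members with the lowest p. Not drawn are, among others, Il1b (difference -0.011), Il1r1 (0.032), Il18 (-0.047) and Il1rn (0.025). Every panel shows overlapping groups, and 1 PolyI:C animal at 6.25 lies apart in the Il1rapl1 panel.

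Of the other interleukin receptors none passed. Il6st, the subunit through which the IL-6 family signals, averaged 8.19 ± 0.030 in PolyI:C animals and 8.20 ± 0.062 in control animals, with an interval of -0.075 to 0.064. Il6ra, which binds IL-6 itself, differed by -0.026 (-0.13 to 0.074), and Il17ra, a receptor of IL-17, by -0.036 (-0.12 to 0.044). The IL-17 receptor family genes Il17rd and Il17rc differed by -0.071 ± 0.036 and -0.043 ± 0.029. Below the median, Il1r1, the signalling receptor of IL-1, differed by 0.032 (-0.087 to 0.15), and Il27ra, the receptor of IL-27, by -0.090 ± 0.034 (limma adjusted p = 0.16). The dim probe sets of Il12rb2, a receptor subunit for IL-12, and Il18rap, the accessory subunit of the IL-18 receptor, differed by -0.10 ± 0.050 and -0.097 ± 0.044. Of the 36 interleukin receptors 26 had a lower mean in PolyI:C animals (27 after quantile normalization and 28 after centring), with a median of -0.035. A higher mean was found for 5 of the 12 above the array median, against 63.0% of annotated probe sets there, and for 5 of the 24 below it, against 35.7%. Of all 23099 annotated probe sets 11093 had a lower mean as deposited, 13135 after quantile normalization and 12621 after centring.

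The 31 chemokines direct the movement of leukocytes and other cells. Of these 0 passed and 3 had an unadjusted p under 0.05, against 19.1% of annotated probe sets. Ccl25 (probe set 10569958), a chemokine of thymus and gut, measured 5.51 at the lowest, 5.59 at the median and 5.86 at the highest in PolyI:C animals, and 5.33, 5.45 and 5.59 in control animals. All 6 PolyI:C animals lay above the control mean, with overlap. The difference of 0.17 ± 0.056 did not pass (limma adjusted p = 0.105), and the second probe set of Ccl25 (10569962) went the other way at -0.050 ± 0.034, so that the mean of both gave 0.059. Ccl12 (probe set 10379530), a mouse ligand of Ccr2, was dim and measured 3.83 at the lowest, 3.94 at the median and 4.05 at the highest in PolyI:C animals, and 3.98, 4.10 and 4.14 in control animals. All 6 PolyI:C animals lay below the control mean. Its difference of -0.15 ± 0.042 had an adjusted p of 0.069 in limma (range 0.040 to 0.14 over the alternatives) and passed without PolyI:C 2 (-0.17, adjusted p = 0.040).

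The chemokines of resting cortex differed by less than these. Cxcl14, found in some cortical interneurons, averaged 8.17 ± 0.11 in PolyI:C animals and 8.21 ± 0.11 in control animals, with an interval of -0.16 to 0.078. Cxcl12 averaged 6.47 ± 0.072 in PolyI:C animals and 6.44 ± 0.068 in control animals, and its receptor Cxcr4, below the median, differed by -0.020 (-0.10 to 0.065). Both of these differences changed sign when 1 animal was left out. Ccl2 and Ccl3, which recruit monocytes, differed by -0.0062 (-0.086 to 0.073) and -0.029 (-0.11 to 0.056), and Ccl5, which attracts T cells, by 0.044 (-0.017 to 0.11). Ccl2 and Ccl3 lay below the array median. The probe sets of Ccl3 and Cxcr4 also lay below the 25th percentile of all probe sets (3.945), where the signal may be little more than background.

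Several members are textbook targets of NF-kB, and its consensus site, a 10-base motif, was sought upstream of the members' genes. The motif was searched on both strands in the 250 bases before each transcription start in the RefSeq promoter table of GRCm38.p6, where 126 of the 164 members were found. It was present for 16 of the 126 (12.7%), against 5.67% of all 27025 genes in that table. Tnf, Il1b, Ccl2 and Ccl5 were not among the 16. From the 16 with a match, the stretches of Il6 and of the neutrophil chemokines Cxcl1, Cxcl2 and Cxcl3 are shown because these are well-known acute targets. All are on the plus strand and written 5′ to 3′, with the motif match in capitals, and lie at chr5:30013025-30013113, chr5:90891129-90891228, chr5:90903757-90903856 and chr5:90785983-90786082.
Il6: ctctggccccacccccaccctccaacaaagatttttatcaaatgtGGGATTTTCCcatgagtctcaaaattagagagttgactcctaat
Cxcl1: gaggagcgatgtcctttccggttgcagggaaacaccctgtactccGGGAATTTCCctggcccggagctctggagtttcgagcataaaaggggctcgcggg
Cxcl2: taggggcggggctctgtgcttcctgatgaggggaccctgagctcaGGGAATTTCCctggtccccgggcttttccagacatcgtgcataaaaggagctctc
Cxcl3: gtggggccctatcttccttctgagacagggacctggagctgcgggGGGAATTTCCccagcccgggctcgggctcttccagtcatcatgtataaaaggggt
The first bases of these matches lie 44, 71, 97 and 73 bases before the start.

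All 4 of these genes were below the array median in both groups. Il6 and Cxcl2 were also below the 25th percentile of all probe sets (3.945), where a probe set may carry little more than background. Only 4.82% of probe sets were dimmer than that of Il6. Il6 measured 2.87 at the lowest, 2.92 at the median and 2.98 at the highest in PolyI:C animals, and 2.87, 2.92 and 2.99 in control animals, so the groups covered nearly the same range. Cxcl1 averaged 4.56 ± 0.063 in PolyI:C animals and 4.54 ± 0.042 in control animals. Cxcl2 averaged 3.61 ± 0.14 in PolyI:C animals and 3.71 ± 0.098 in control animals, and Cxcl3 4.28 ± 0.098 in PolyI:C animals and 4.29 ± 0.099 in control animals. The differences were 0.019 for Cxcl1, -0.10 for Cxcl2 (limma adjusted p = 0.36) and -0.0081 for Cxcl3. Among the 16 members with the motif 0 passed, 8 had a higher mean in PolyI:C animals, and the differences ran from -0.10 to 0.083 with a median of -0.0040. A match is only a run of letters and shows no binding in this tissue.

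In the TNF family the median difference was above 0 for receptors and below 0 for ligands, and none of these genes passed the threshold. An unadjusted p under 0.05 was found for 3 of 20 receptors and 2 of 10 ligands, against 19.1% of annotated probe sets. Of 20 receptor genes 13 had a higher mean in PolyI:C animals (12 after quantile normalization or centring), with a median of 0.033, and of 10 ligands 8 had a lower mean (8 and 9 under those scalings), with a median of -0.054. Of these ligands 9 lay below the array median, where 2 had a higher mean, against 35.7% of annotated probe sets there, whose median was -0.019. Of the 9 receptors above the array median 7 were higher under each of these scalings. Of the 13783 annotated probe sets there 8681 (63.0%) were higher as deposited, 6664 after quantile normalization and 7812 after centring. Below the array median 6 of 11 receptors were higher as deposited, against 35.7% of annotated probe sets there. Tnfrsf21, a death receptor of neurons, averaged 9.11 ± 0.054 in PolyI:C animals and 9.07 ± 0.039 in control animals (interval -0.024 to 0.11). Tnfrsf19, known from neural and glial progenitors, differed by 0.060 (-0.024 to 0.14), Tnfrsf12a, a receptor induced by injury, by 0.086 (-0.023 to 0.20), and Tnfrsf11b, a soluble decoy receptor, by 0.091 (-0.0010 to 0.18). Tnfrsf25, a death domain receptor of T cells, averaged 5.93 ± 0.071 in PolyI:C animals and 5.85 ± 0.039 in control animals, with 6 of 6 above the control mean (limma adjusted p = 0.21).

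The receptors of TNF itself did not pass either. Tnfrsf1a, the broadly expressed receptor that carries a death domain, measured 5.14 at the lowest, 5.25 at the median and 5.33 at the highest in PolyI:C animals, and 5.22, 5.34 and 5.44 in control animals. All 6 PolyI:C animals lay below the control mean, the groups overlapped, and the difference of -0.11 ± 0.044 did not pass (limma adjusted p = 0.19). Tnfrsf1b, found in microglia, differed by -0.0064 (-0.085 to 0.073), and the sign turned without control 1, control 3, PolyI:C 2, PolyI:C 3 or PolyI:C 6. Tnf averaged 4.71 ± 0.073 in PolyI:C animals and 4.76 ± 0.020 in control animals (-0.053, interval -0.13 to 0.019). The ligands with the lowest p were the T cell costimulators Tnfsf9 (-0.13 ± 0.043, adjusted p = 0.115) and Tnfsf4 (-0.089 ± 0.034, adjusted p = 0.16). Both had 6 of 6 PolyI:C animals below the control mean, and both lay below the 25th percentile of the array.

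Toll-like receptors, which sense microbial molecules, gave 0 calls among 11. An unadjusted p under 0.05 was found for 1 of the 11, against 19.1% of annotated probe sets. Tlr7, a sensor of single-stranded RNA, averaged 3.98 ± 0.085 in PolyI:C animals and 3.87 ± 0.063 in control animals (0.11 ± 0.042, limma adjusted p = 0.17), with 6 of 6 PolyI:C animals above the control mean on a dim probe set. Tlr9, a sensor of unmethylated DNA and the 1 Toll-like receptor gene above the median, differed by -0.080 (-0.21 to 0.050). Tlr4, the receptor of bacterial lipopolysaccharide, differed by -0.069 ± 0.034. Tlr2, a receptor of bacterial lipopeptides, averaged 4.73 in both groups (interval -0.10 to 0.10). Microglia carry many of these receptors, and of 19 microglial markers 0 passed and 2 had an unadjusted p under 0.05, against 19.1% of annotated probe sets. A lower mean in PolyI:C animals was found for 15 of these markers and a higher mean for 4. Above the array median, where 18 of the 19 lay, 63.0% of annotated probe sets had a higher mean. The median difference of the markers was -0.025, with a mean level of 6.68 to 6.80 in PolyI:C animals and 6.70 to 6.81 in control animals.

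**Figure D4:**
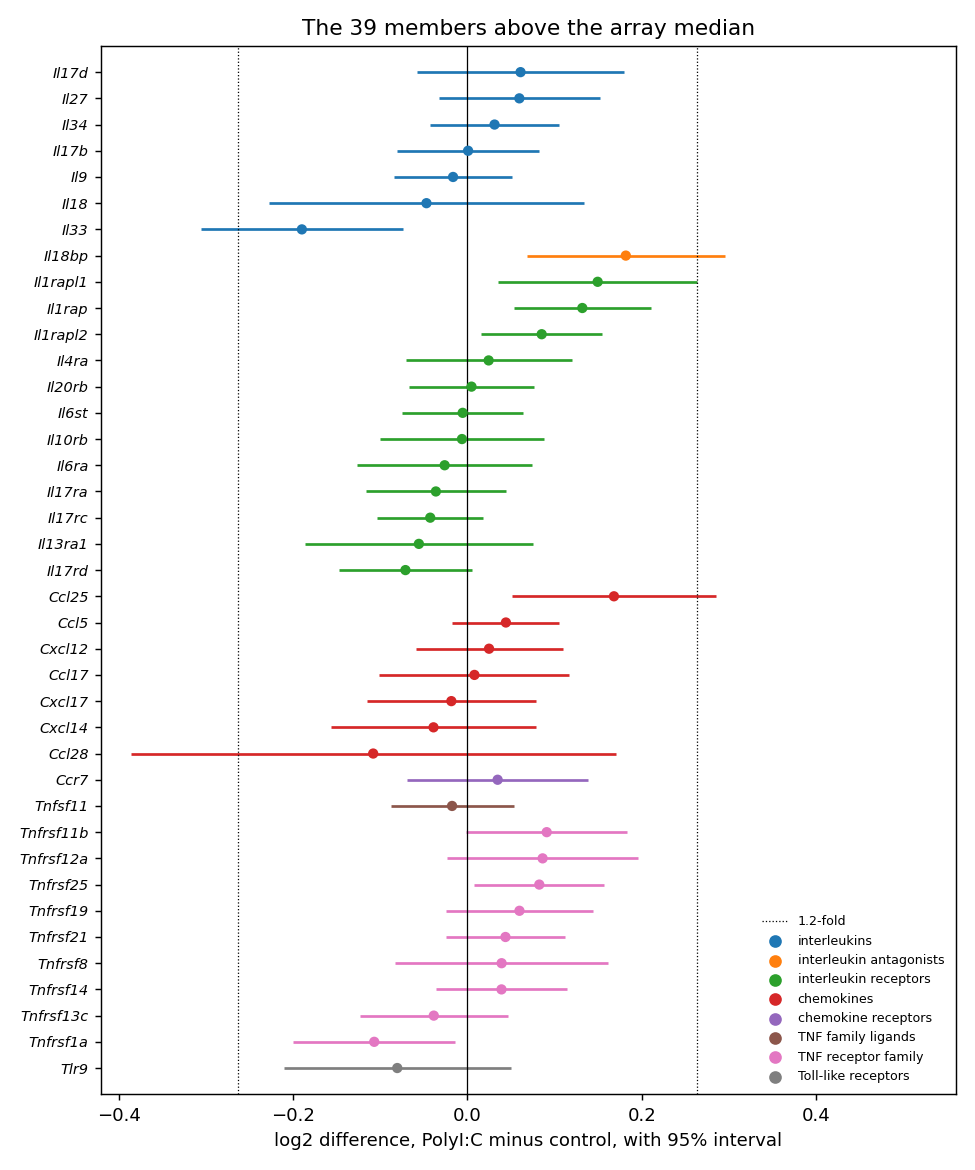
Log2 difference, PolyI:C minus control (x axis), with its unadjusted 95% interval, for the 39 members above the array median, coloured by role and ordered by difference within a role. Dotted lines mark 1.2-fold in either direction, which the intervals of Il33, Il18bp, Il1rapl1, Ccl25 and Ccl28 cross.

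Genes beside these in the same pathways were read from lists. Of 50 other cytokines and receptors outside the symbol rule 0 passed, with a median difference of -0.018. An unadjusted p under 0.05 was found for 10 of the 50, against 19.1% of annotated probe sets. Csf2ra, a receptor subunit for the growth factor GM-CSF, averaged 7.27 ± 0.12 in PolyI:C animals and 7.10 ± 0.040 in control animals (0.17 ± 0.048, limma adjusted p = 0.064), and passed without PolyI:C 3 (adjusted p = 0.042) or PolyI:C 5 (0.047) and above that 50th percentile (0.044). Osmr, the oncostatin M receptor, differed by -0.14 ± 0.043 (adjusted p = 0.085, and 0.043 without control 4), and Cntfr, the receptor of ciliary neurotrophic factor, by -0.12 ± 0.038 (0.10, and 0.040 without control 6).

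Of 48 genes that signal below the receptors 0 passed, with a median of 0.010. An unadjusted p under 0.05 was found for 7 of the 48, against 19.1% of annotated probe sets. The lowest p belonged to the kinase Jak2, at 7.12 ± 0.045 in PolyI:C animals and 6.99 ± 0.085 in control animals (0.13 ± 0.039, limma adjusted p = 0.073). Jak2 passed without control 5 (adjusted p = 0.037), without controls 5 and 6 together (0.033) and above that 50th percentile (0.048). The feedback inhibitor Socs2 differed by 0.15 ± 0.051 (adjusted p = 0.105) and the phosphatase Ptpn11 by -0.090 ± 0.033 (0.14). A list for the inflammasome and cytokine processing held 16 genes, among them Lbp, the lipopolysaccharide-binding protein, which is neither. Of these 16 genes 0 passed and 0 had an unadjusted p under 0.05. The lowest p there belonged to Lbp (-0.068 ± 0.039), Aim2 (-0.066 ± 0.040) and Casp4 (-0.036 ± 0.035), with adjusted p from 0.36 to 0.61.

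Markers of blood and vessel cells, which could bring cytokine genes into the tissue, gave 0 calls in each list. The median difference was -0.035 over 8 genes of perivascular macrophages, -0.019 over 10 of T and NK cells, -0.043 over 6 of B cells and 0.016 over 6 of neutrophils and red cells. It was -0.014 over 10 endothelial genes, -0.065 over 9 of pericytes and smooth muscle, and -0.094 over 7 of meninges and choroid plexus. An unadjusted p under 0.05 was found for 2 of 10 genes of T and NK cells. It was found for 0 genes of perivascular macrophages, of B cells, and of neutrophils and red cells. In the last lists it was found for 1 of 10 endothelial genes, 2 of 9 of pericytes and smooth muscle and 3 of 7 of meninges and choroid plexus. The share of all annotated probe sets was 19.1%. The part of these cells in the members' differences was not tested.

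**Figure D5:**
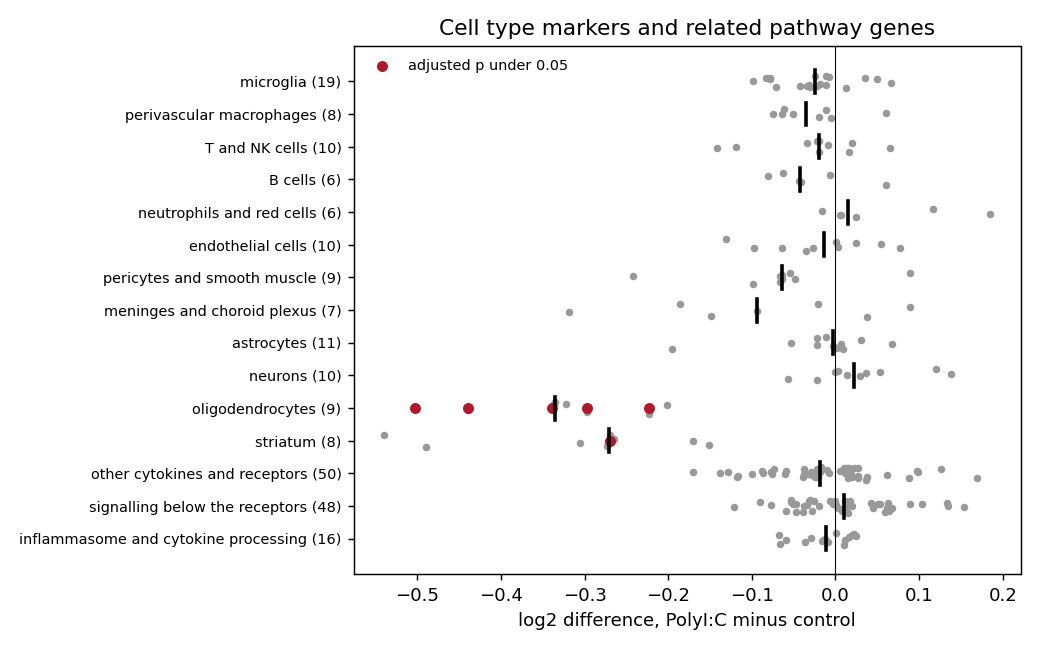
Log2 difference, PolyI:C minus control (x axis), of each measured gene (grey points) of 12 cell type marker lists and 3 pathway lists (y axis, number of genes in brackets), with the list median as a black bar. Red points passed an adjusted p of 0.05 in limma, 5 oligodendrocyte markers and the striatal marker Ppp1r1b.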

How the data were processed

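Total RNA of 12 animals was measured on Affymetrix Mouse Gene 1.1 ST array strips, per the labels' protocols. The authors deposited 1 log2 expression value for each probe set and array, as the range of the values shows. Per the submitters' processing notes RMA and Partek 6.6 were used, in what role is not said; no annotation is named there. Such normalization, if applied, makes array distributions alike and shrinks differences of dim probe sets. The number of arrays limits the precision.

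Of 35556 probe sets 21218 carried 1 gene in the platform annotation, which can be old, 1881 several and 12457 none. Symbols of 21185 were updated through the gene identifier (RefSeq, GRCm38.p6), and probe sets of several genes were not named. The 23099 annotated probe sets were compared, PolyI:C minus control, in limma 3.58.1 under R 4.3.3 (lmFit, eBayes; no covariates; two-sided). Benjamini-Hochberg adjustment ran over all of them. Adjusted p-values come from that fit, SE is its moderated standard error, and intervals are 95% and unadjusted. The fit was tested on simulated data with independent noise and known shifts, all larger than any member's difference. That test does not show how often differences of the members' size would be called. Figures used matplotlib 3.10.9.

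Members and lists were chosen with earlier results of these data known. Members named were those past the threshold (0), the 14 above and 8 below the array median with the lowest p, the 10 with the highest signal and 25 of known role, with the 3 lowest p of each pathway list and all called list genes. Cxcl1, Cxcl2 and Cxcl3 were added for their promoters, and Ccl28, Il12rb2, Il18rap, Il1rn and Il1f5 after their values were seen.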

Additional observations from a re-analysis of the deposited data

Results flagged for a closer look

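In 63 named genes each group of 6 animals was examined for a single animal far from the others, which chance alone flags in about 1 group in 20, and 9 of 126 groups held one. PolyI:C 5 had 6.25 for Il1rapl1, where the other PolyI:C animals lay between 6.56 and 6.62. PolyI:C 1 had 5.86 for Ccl25, where the next was 5.61, and 3.33 for Cxcl2, where the next was 3.62. PolyI:C 6 had 5.41 for Il17rc, where the next was 5.50, and PolyI:C 4 had 7.73 for Mobp, where the next was 8.18. Control 4 had 5.39 for Il18bp, where the next was 5.21. Control 2 had 6.57 for Cxcl12 (next 6.45) and 6.51 for Il6ra (next 6.40), and control 5 had 9.14 for Tnfrsf21 (next 9.07).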

How the results depend on the processing

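The number of members called was 0 as deposited and stayed 0 with the replicate block, which called 536 annotated probe sets in place of 653. It was 1 (Il33) after quantile normalization and 1 (Il33) after median centring, and 2 of 17 (Il33 and Il1rap) at or above the 50th percentile, where no member below the array median was left; all of these lay above the median. Leaving out 1 animal gave 0 to 2 calls among all members, 0 to 2 above and 0 to 1 below the median. Annotated calls numbered 414 over all rows, 122 without moderation and 230 to 818 with 1 animal left out (230 without control 2, 236 without PolyI:C 1, 281 without control 3, 302 without PolyI:C 4, 331 without control 1, 392 without PolyI:C 6 and 396 without PolyI:C 3). The median of the members above was -0.0076 after quantile normalization and 0.025 both at or above the 50th percentile and with the array median taken over annotated probe sets (17 members each). Of 1392 recomputed gene differences 35 changed sign, in genes whose differences in the main fit lay between -0.047 (Il18) and 0.031 (Il34). The sign changed for Il34 (-0.0016) and Tlr2 (-0.0024) after quantile normalization, and for Tlr2 with centring (-0.010) and array weights (-0.0085). Leaving out controls 5 and 6 was an alternative chosen after seeing the data for their striatal levels. There the sign changed for Ccl2 (0.0047), Il6st (0.00023) and Tlr2 (-0.020). With 1 animal left out the ranges that crossed 0 were -0.034 to 0.025 for Tlr2, -0.035 to 0.0057 for Tnfrsf1b, -0.029 to 0.012 for Ccl2, -0.024 to 0.0041 for Il1b, -0.022 to 0.00045 for Il6, -0.10 to 0.015 for Il18, -0.023 to 0.016 for Il6st, -0.036 to 0.0054 for Cxcr4, -0.055 to 0.0056 for Il6ra, -0.0017 to 0.050 for Cxcl12 and -0.034 to 0.025 for Cxcl3. The cause of these changes was not tested. Animals sharing a replicate number did not deviate together (r from -0.092 to 0.11 over 6 pairs, 1 above 0.1, and 0 of 6 best matched by their own number).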

Other observations

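Ccl28, a chemokine of mucosal tissues, varied most between animals of a group, with a pooled SD of 0.29 against 0.18 for the next member, Il18. PolyI:C animals 1 and 4 had 5.95 and 5.84 and the other 4 lay between 5.31 and 5.43, while controls 3 and 6 had 6.05 and 5.97 and the other 4 lay between 5.41 and 5.53. High and low animals thus occurred in both groups, and the means were 5.54 ± 0.29 in PolyI:C animals and 5.64 ± 0.29 in control animals.

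Of the members 6 had more than 1 single-gene probe set. Ccl19 had 5, from -0.027 to 0.0090, and 2 of them held identical values; the Ccl19 region is known for near-identical gene copies, so its values are uncertain. The second probe sets of Tnfsf13b (-0.072 beside -0.056), Il17rd (-0.069 beside -0.071) and Il22ra1 (-0.078 for both) gave differences close to those of the first.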
